A study of Mus musculus with 12 samples.

Results

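The genes described here are the transporters of glucose, phosphate, dicarboxylates and related small solutes in the mouse kidney. They were taken by symbol from the protein-coding rows of the count table, as all members of the 6 solute carrier families Slc2, Slc5, Slc13, Slc17, Slc20 and Slc34. This gave 44 of 42748 genes: 12 of Slc2, 13 of Slc5, 5 of Slc13, 9 of Slc17, 2 of Slc20 and 3 of Slc34. Of these, 40 had enough counts to be among the 19218 genes tested. The other 4 are Slc5a3, Slc5a7, Slc17a6 and Slc17a7.

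Whole kidneys of adult mice were sequenced in 4 groups of 3 libraries. These were Ybx3 knockout after renal ischemia/reperfusion injury (IRI), wild type after IRI, Ybx3 knockout control and wild-type control. In IRI blood is kept from the kidney for a time and then let back in. The product of Ybx3, DNA-binding protein A, belongs to the cold shock domain proteins and binds nucleic acids. The labels do not say whether the knockout is limited to a cell type, how long after the injury kidneys were taken or which sex the mice were, and the sources used here do not give the deleted part of Ybx3. They name separate samples and say no more on their origin, so a p-value speaks only of the spread among the samples at hand.

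Total counts ran from 39074224 to 67948710 per library. As a check of the labels, Ybx3 had 13.6, 15.6 and 18.6 CPM in knockout IRI against 81.1, 53.9 and 104.5 CPM in wild-type IRI. It had 12.9, 9.28 and 9.48 CPM in knockout control against 36.9, 32.99 and 30.2 CPM in wild-type control, so that the genotypes did not overlap. CPM scales each library's counts to the same total. Libraries of the same group stood apart in 2 ways. The Y-linked genes Ddx3y, Eif2s3y, Kdm5d and Uty summed to 207, 33.2 and 307 CPM in replicates 1 to 3 of wild-type IRI, against 1.14, 1.79 and 1.54 CPM in wild-type control. In knockout the sum was 45.2, 227 and 1.26 CPM after IRI, against 1.18, 248 and 261 CPM without it. In wild type the Y-linked level was thus high in every IRI library and near 0 in every control library, and its part in the wild-type IRI results cannot be told apart from that of the injury. The summed level of 5 adrenal cortex genes was 272 and 1397 CPM in knockout IRI replicates 1 and 2, and between 5.15 and 7.49 CPM in the other 10 libraries.

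The proximal tubule takes back nearly all the glucose and most of the phosphate that the glomerulus filters. Sodium-coupled carriers in the brush border (Slc5, Slc34, Slc13) draw the solute into the cell along the sodium gradient, and facilitative carriers of the Slc2 family let glucose leave on the blood side. Dicarboxylates such as succinate and citrate enter by Slc13 carriers, phosphate for general cell use enters by Slc20 carriers, and Slc17 carriers move urate and other organic anions, or fill vesicles with transmitters.

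Per kilobase of exon, the levels of these genes in wild-type control kidneys covered several orders of magnitude. Slc34a1, the main phosphate carrier of the brush border, was highest at 721 ± 69.8 CPM per kilobase (SD, n = 3), followed by the lactate carrier Slc5a12 at 153 ± 5.59. The glucose carrier Slc5a2 (100.3 ± 12.3), the dicarboxylate carrier Slc13a3 (87.7 ± 12.5) and the urate carrier Slc17a1 (83.4 ± 6.44) came next, and their order was not set beyond their spread. The sugar carrier Slc5a10 (40.3 ± 6.402) and the sulfate carrier Slc13a1 (35.03 ± 8.77) did not differ beyond their spread either. Of the glucose carriers of the Slc2 family, Slc2a1 stood at 11.4 ± 1.22 and Slc2a2 at 2.099 ± 0.172 CPM per kilobase. After IRI Slc34a1 was still the highest in wild type, at 261 ± 113 CPM per kilobase.

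**Figure D1:**
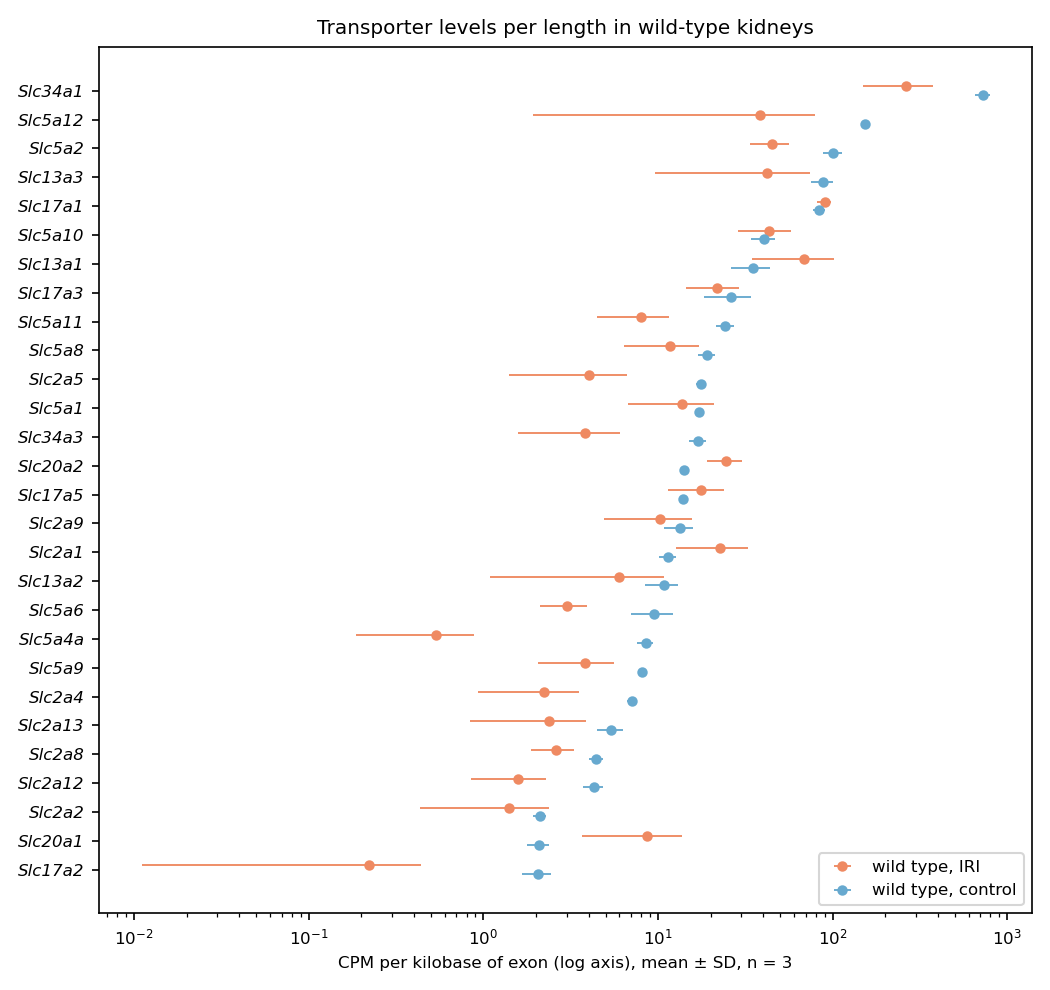
Mean level per kilobase of exon (x axis, CPM per kilobase on a log axis) of the transporter genes at 2 or more CPM per kilobase in wild-type control kidneys, in wild-type IRI kidneys and wild-type control kidneys, with bars of 1 SD over 3 libraries. Slc34a1 lies to the right of all others in both groups, and Slc5a4a and Slc17a2 have the widest gap between the groups, with IRI to the left.

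After IRI in wild-type kidneys, 16 of the 40 tested genes changed, 4 higher and 12 lower, called where edgeR's quasi-likelihood p, adjusted over all genes by Benjamini-Hochberg, was under 0.05. Over all 19218 genes 22.5% were called, 13.1% higher and 9.41% lower. The genes that rose were the phosphate carriers Slc34a2, Slc20a1 and Slc20a2 and the glucose carrier Slc2a1. Those that fell were Slc5a4a, Slc34a3, Slc2a5, Slc2a4, Slc5a6, Slc5a11, Slc34a1, Slc2a12, Slc13a4, Slc5a2, Slc5a9 and Slc2a8. The median log2 fold change of the 40 genes was -0.48, beside 0.02 over all genes tested. In 5 genes every IRI library was above every control library and in 17 every one was below, where 21.2% and 19.9% of all genes were so placed.

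In knockout kidneys 6 of the 40 genes changed after IRI, Slc34a2 and Slc13a1 higher and Slc5a4a, Slc5a8, Slc34a1 and Slc5a2 lower. Over all genes 6.32% were called, 3.9% higher and 2.42% lower. The median log2 fold change of the 40 genes was -0.28, beside 0.02 over all genes. In 7 genes every IRI library was above every control library and in 14 every one was below, beside 21.2% and 15% of all genes. All 16 genes called in wild type had the same direction in knockout, which shares no library with the wild-type comparison. Of all 4320 genes called in wild type, 95.3% did so. The knockout log2 fold change was a median 0.56 times the wild-type one for the 16 genes, and 0.57 times for the 4320. Both sets were picked for passing in wild type, which by itself favours large wild-type values. The ratio thus does not show a weaker response in knockout.

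**Figure D2:**
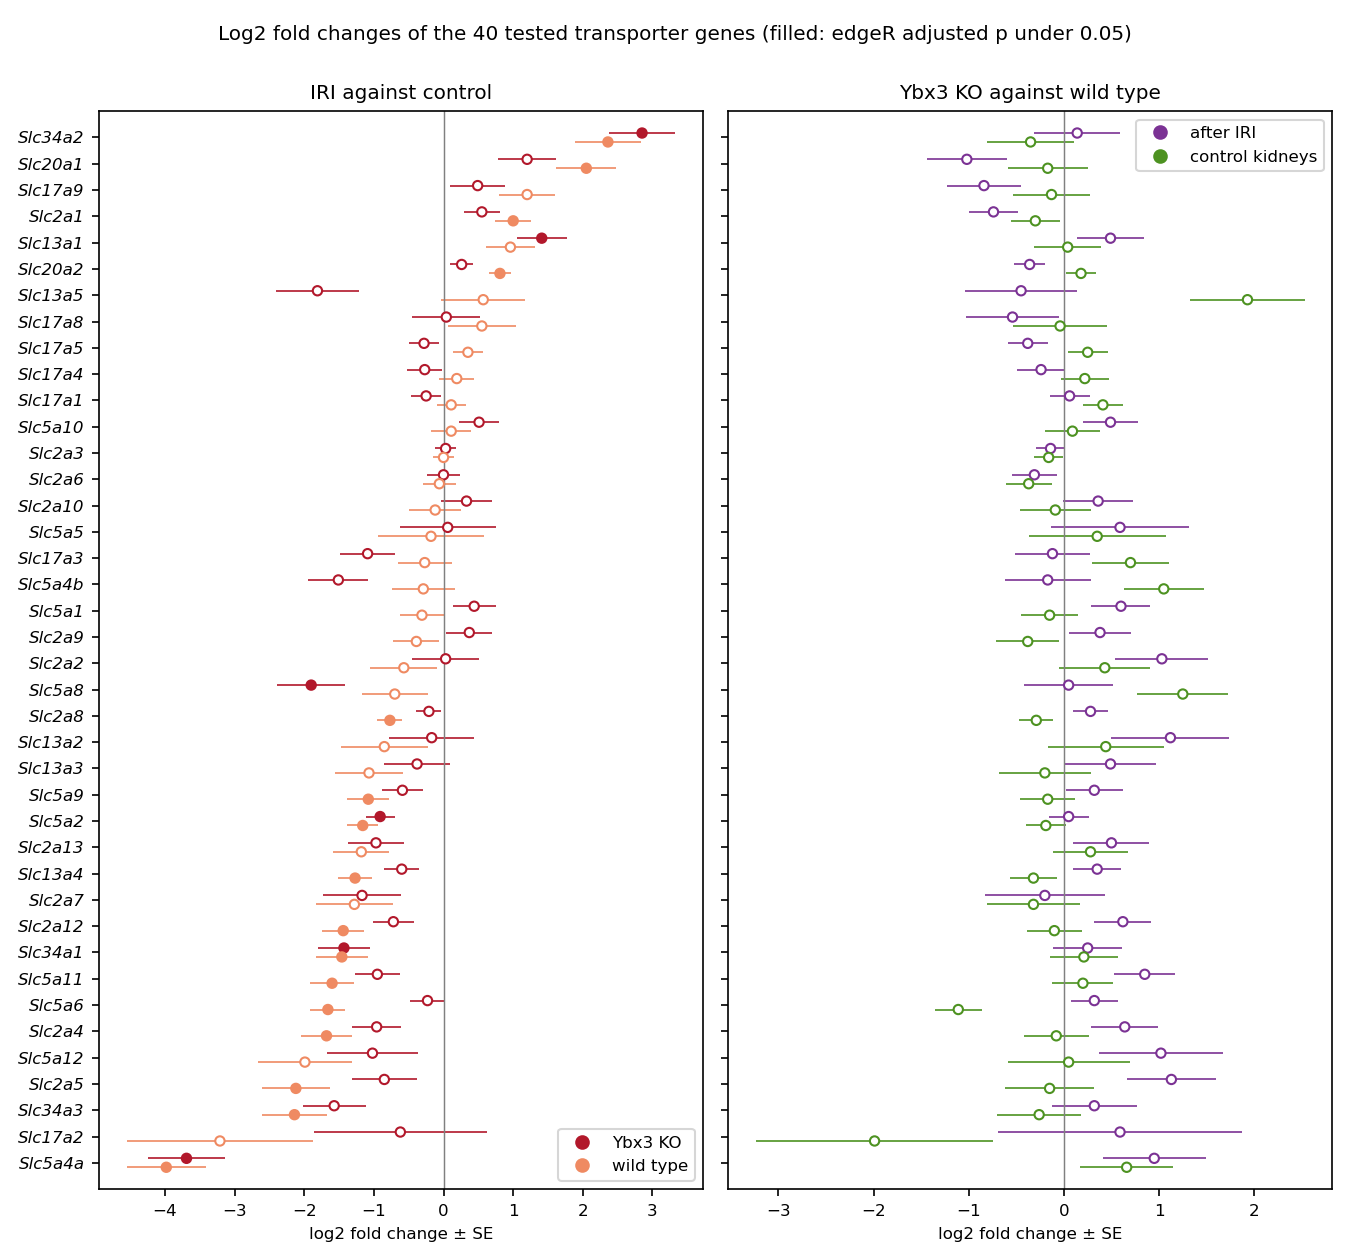
Log2 fold changes with bars of 1 SE (x axis) of the 40 tested genes (rows), IRI against control on the left in Ybx3 knockout and wild type, and knockout against wild type on the right after IRI and in control kidneys. Filled points passed the edgeR threshold, 6 in knockout and 16 in wild type on the left and none on the right; Slc34a2 is at the top and Slc5a4a at the bottom in wild type.

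These counts moved with the choice of libraries and of the test. With the Y-linked level added as a covariate, none of the 16 wild-type calls held (adjusted p from 0.0501 to 0.277 by edgeR), all 16 kept their direction, and 1.59% of all genes were called. Their log2 fold changes in that fit were 0.67 to 1.16 times those without the covariate, with a median of 0.84. In knockout 3 of the 6 calls remained in it, beside 5.78% of all genes called. With only the wild-type libraries in the fit, the calls of Slc2a1, Slc2a8, Slc5a9, Slc13a4, Slc20a2, Slc34a1 and Slc34a2 ended (adjusted p from 0.0522 to 0.0939 by edgeR), and 6.68% of all genes were called. DESeq2 called 20 of the 40 in wild type and 13 in knockout, beside 30.5% and 13% of all genes. It added Slc13a1, Slc17a9, Slc2a13 and Slc5a12 in wild type and Slc13a5, Slc17a3, Slc20a1, Slc2a4, Slc34a3, Slc5a11 and Slc5a4b in knockout. Limma-voom called 19 in wild type, with Slc17a2, Slc2a13 and Slc5a12 added, and 5 in knockout, with Slc34a3 added and Slc13a1 and Slc5a8 lost, beside 22.4% and 5.58% of all genes. Without knockout IRI replicate 1 and wild-type IRI replicate 2, whose Y-linked level is intermediate, 21 were called in wild type and 13 in knockout, beside 33.6% and 9.08% of all genes. That fit added Slc13a3, Slc17a9, Slc2a13, Slc5a1 and Slc5a12 in wild type and Slc13a4, Slc20a1, Slc2a12, Slc2a4, Slc34a3, Slc5a11 and Slc5a12 in knockout. The fits named beside single genes are mostly those without 1 library.

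In knockout, libraries with a like Y-linked level can be set side by side without a test. Replicate 3 after IRI and replicate 1 in control are both near 0, and replicate 2 after IRI and replicates 2 and 3 in control are all high, at 227.4 to 261.2 CPM. The knockout groups of Slc34a1, Slc34a2 and Slc5a4a do not overlap, so that the direction of any such ratio was fixed and only its size is a description. For Slc34a1 the log2 ratio of IRI to control was -1.02 at the low Y-linked level and -2.28 at the high one. For Slc34a2 it was 3.06 and 2.77, and for Slc5a4a it was -2.56 and -5.61. Some other genes called in wild type had smaller ratios, such as -0.01 and -0.44 for Slc5a6, and 0.14 and 0.49 for Slc20a2. Slc34a3 had -1.46 and -2.52. Knockout IRI replicate 2, used at the high level, held 1397 CPM of the adrenal cortex genes, and replicate 3, used at the low one, 6.06 CPM. The size of these ratios thus cannot be tied to the Y-linked level alone. Without the adrenal libraries, which leaves 1 knockout IRI library, no knockout call remained (adjusted p from 0.106 to 0.348 by edgeR), where 0.219% of all genes were called. The 6 log2 fold changes were then 0.85 to 1.21 times those with all libraries. In whole kidney, fewer cells of a type and less RNA per cell cannot be told apart.

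Most markers of the early proximal tubule, the nephron segment of SGLT2 and NaPi-IIa, were lower too. Of 10 such genes 7 fell and none rose in wild type, beside 9.41% of all genes called lower. In knockout 4 fell and none rose, beside 2.42% of all genes called lower. The summed level of the 10 was 4639 to 8436 CPM in wild-type IRI, against 11690 to 15500 CPM in wild-type control. In knockout it was 4668 to 9525 CPM after IRI, against 11480 to 12540 CPM in control. None of the 10 was at 0. Lrp2 had the highest mean of the 10, 6887 CPM in wild-type control, and weighs most in these sums. Pck1 did not pass in wild type (log2 fold change -0.01, SE 0.44, edgeR adjusted p = 0.991) or knockout (log2 fold change 0.98, SE 0.44, edgeR adjusted p = 0.215). Slc7a7 did not pass in wild type either (log2 fold change -0.74, SE 0.32, edgeR adjusted p = 0.112). Nor did Ggt1 (log2 fold change -0.15, SE 0.22, edgeR adjusted p = 0.655), which fell in knockout (log2 fold change -0.90, SE 0.23, edgeR adjusted p = 0.0417). Of 5 markers of the late proximal tubule 4 were tested. Acsm3 rose (log2 fold change 4.60, SE 1.32, edgeR adjusted p = 0.0319) and Slc22a7 fell in wild type, and only Slc22a7 was called in knockout, where it fell. Acsm3 had the opposite sign in knockout (log2 fold change -2.85, SE 1.16, edgeR adjusted p = 0.17). Its mean was 0.646 CPM in wild-type control and 37.7 CPM in knockout control. The median log2 fold change of the 4 was 2.77 in wild type and -2.52 in knockout. Their summed level was 63.7 to 194 CPM in wild-type IRI, against 103 to 180.0 CPM in wild-type control. In knockout it was 55.1 to 106 CPM after IRI, against 80.6, 916 and 748 CPM in control replicates 1 to 3. Slc22a13, the fifth, was listed at 0. The part of either segment in the results on the transporters was not tested.

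Among the phosphate carriers, the 2 of the kidney brush border, Slc34a1 and Slc34a3, fell after IRI in wild type, while Slc34a2 and the widely expressed Slc20a1 and Slc20a2 rose. Of the 3 Slc34 and 2 Slc20 genes, 3 were called higher and 2 lower in wild type, beside 13.1% and 9.41% of all genes. The 250 bases before the RefSeq start (build GRCm38.p6) of the most abundant carrier that fell, Slc34a1, and of both carriers with a more than 4-fold rise, Slc34a2 and Slc20a1, are shown here 5′ to 3′, since members of 1 small group moved in opposite directions. Capitals mark matches to the letters searched on both strands: GTTAAT (part of the HNF1 site), CAAAGT (core of the HNF4 site), ACGTG (core of the hypoxia response element), TGANTCA (AP-1) and TATAAA (a core promoter element).
Slc34a1 (chr13:55399398-55399647, plus strand): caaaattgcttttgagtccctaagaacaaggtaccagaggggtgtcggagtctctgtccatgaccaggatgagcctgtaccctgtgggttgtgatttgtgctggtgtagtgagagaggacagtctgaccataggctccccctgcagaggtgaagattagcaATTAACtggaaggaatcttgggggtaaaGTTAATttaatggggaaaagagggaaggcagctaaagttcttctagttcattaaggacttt
Slc34a2 (chr5:53049103-53049352, plus strand): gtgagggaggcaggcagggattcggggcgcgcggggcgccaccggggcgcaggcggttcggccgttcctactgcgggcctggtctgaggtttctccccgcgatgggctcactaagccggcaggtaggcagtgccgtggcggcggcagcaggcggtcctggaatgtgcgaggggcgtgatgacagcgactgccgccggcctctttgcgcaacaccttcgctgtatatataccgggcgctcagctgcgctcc
Slc20a1 (chr2:129198523-129198772, plus strand): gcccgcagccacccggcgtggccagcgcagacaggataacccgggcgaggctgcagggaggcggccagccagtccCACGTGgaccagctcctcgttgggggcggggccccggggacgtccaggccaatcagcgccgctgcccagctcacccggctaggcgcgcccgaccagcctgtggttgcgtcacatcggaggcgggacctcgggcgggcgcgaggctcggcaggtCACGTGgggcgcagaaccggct
Slc34a1 held GTTAAT in 2 places, starting 89 and 61 bases before the start, and 6.52% of 27025 promoters in the table held it at least once. Slc20a1 held ACGTG in 2 places, each on both strands because CACGTG reads the same on either one, as did 16.6% of promoters at least once. None of the 5 sets of letters was found in the window of Slc34a2. Slc20a1 and Slc34a2 had 29 and 28 CpG pairs, Slc34a1 had 1, and the median of all promoters was 6. The windows of Slc34a1 and Slc34a2 lie inside the GENCODE spans of these genes, which begin at chr13:55398187 and chr5:53038081. The last bases of their RefSeq entries were not found in a GENCODE transcript of the gene, while those of Slc20a1 were. The starts used for Slc34a1 and Slc34a2 thus rest on RefSeq alone. Such matches describe these letters only.

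Slc34a1 (ENSMUSG00000021490, chr13:55398187-55415592, plus strand, mm10) encodes the sodium-phosphate carrier NaPi-IIa, which does most of the phosphate uptake of the kidney. Slc34a1 had 633, 1657 and 1376 CPM in wild-type IRI replicates 1 to 3, against 3408, 3678 and 3028 CPM in wild-type control. In knockout Slc34a1 had 2058, 918 and 1375 CPM after IRI, against 2788, 4180 and 4763 CPM in control. Every IRI library was below every control library in both genotypes, by a wide gap in wild type and a narrower one in knockout. It fell 2.76-fold in wild type (log2 fold change -1.46, SE 0.37, edgeR adjusted p = 0.0204) and 2.70-fold in knockout (log2 fold change -1.43, SE 0.37, edgeR adjusted p = 0.0457). The wild-type call ended without wild-type IRI replicate 1 (adjusted p = 0.0533 by edgeR) or any 1 wild-type control library (adjusted p from 0.0504 to 0.0653 by edgeR). The knockout call ended without knockout IRI replicates 2 or 3, knockout control replicates 2 or 3, or any 1 wild-type control library (adjusted p from 0.0672 to 0.165 by edgeR). With the replicate block it also ended (adjusted p = 0.107 by edgeR), as it did with the Y-linked covariate (adjusted p = 0.0644 by edgeR) and with only the knockout libraries (adjusted p = 0.0501 by edgeR). Of its exon bases 11.7% lie opposite Pfn3, and the sources used here do not say whether counting used the strand.

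Slc34a3 (ENSMUSG00000006469, chr2:25228898-25234364, minus strand) encodes NaPi-IIc, the smaller brush border carrier. Slc34a3 had 3.05, 10.8 and 13.2 CPM in wild-type IRI replicates 1 to 3, against 44.1, 40.2 and 35.2 CPM in wild-type control. In knockout Slc34a3 had 16.2, 5.94 and 11.5 CPM after IRI, against 31.5, 31.2 and 36.9 CPM in control. The groups did not overlap in either genotype. In wild type it fell 4.42-fold (log2 fold change -2.14, SE 0.46, edgeR adjusted p = 0.0111), and in knockout the difference did not pass (log2 fold change -1.57, SE 0.45, edgeR adjusted p = 0.0643). It passed in knockout without wild-type IRI replicate 1 (adjusted p = 0.0161 by edgeR) or replicate 3 (adjusted p = 0.0362 by edgeR).

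Slc34a2 (ENSMUSG00000029188, chr5:53038081-53071664, plus strand) encodes NaPi-IIb, known as the phosphate carrier of intestine and lung. Slc34a2 had 29.5, 32.2 and 6.58 CPM in wild-type IRI replicates 1 to 3, against 5.99, 3.26 and 4.05 CPM in wild-type control. In knockout Slc34a2 had 21.9, 23.1 and 30.03 CPM after IRI, against 3.603, 3.81 and 2.99 CPM in control. All IRI libraries were above all control libraries, and wild-type IRI replicate 3 was close to the highest control. It rose 5.14-fold in wild type (log2 fold change 2.36, SE 0.47, edgeR adjusted p = 0.00845) and 7.21-fold in knockout (log2 fold change 2.85, SE 0.48, edgeR adjusted p = 0.00954). The knockout call ended without knockout control replicate 2 (adjusted p = 0.0526 by edgeR) or 3 (adjusted p = 0.0572 by edgeR), and the wild-type call in no fit that left out 1 library.

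Slc20a1 (ENSMUSG00000027397, chr2:129198764-129211616, plus strand) and Slc20a2 (ENSMUSG00000037656, chr8:22476788-22569612, plus strand) encode the phosphate carriers PiT1 and PiT2 of most cell types. Slc20a1 had 51.6, 18.9 and 74.4 CPM in wild-type IRI replicates 1 to 3, against 10.3, 11.1 and 13.5 CPM in wild-type control. In knockout Slc20a1 had 16.99, 36.96 and 17.5 CPM after IRI, against 10.3, 10.3 and 10.5 CPM in control. The IRI libraries were all above the controls, with wild-type replicates 1 and 3 and knockout replicate 2 highest. Slc20a1 rose 4.15-fold in wild type (log2 fold change 2.05, SE 0.43, edgeR adjusted p = 0.0104) and did not pass in knockout (log2 fold change 1.20, SE 0.42, edgeR adjusted p = 0.117), where it passed without wild-type IRI replicate 2 (adjusted p = 0.0267 by edgeR). Slc20a2 had 172, 113 and 173 CPM in wild-type IRI replicates 1 to 3, against 83.1, 86.8 and 91.7 CPM in wild-type control. In knockout Slc20a2 had 108, 139.9 and 108 CPM after IRI, against 97.5, 97.1 and 102 CPM in control. Its groups did not overlap, though knockout IRI replicates 1 and 3 lay just above the controls. It rose 1.75-fold in wild type (log2 fold change 0.81, SE 0.16, edgeR adjusted p = 0.00871) and did not pass in knockout (log2 fold change 0.26, SE 0.16, edgeR adjusted p = 0.38). Of the exon bases 13.1% of Slc20a1 and 1.53% of Slc20a2 lie opposite other genes.

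**Figure D3:**
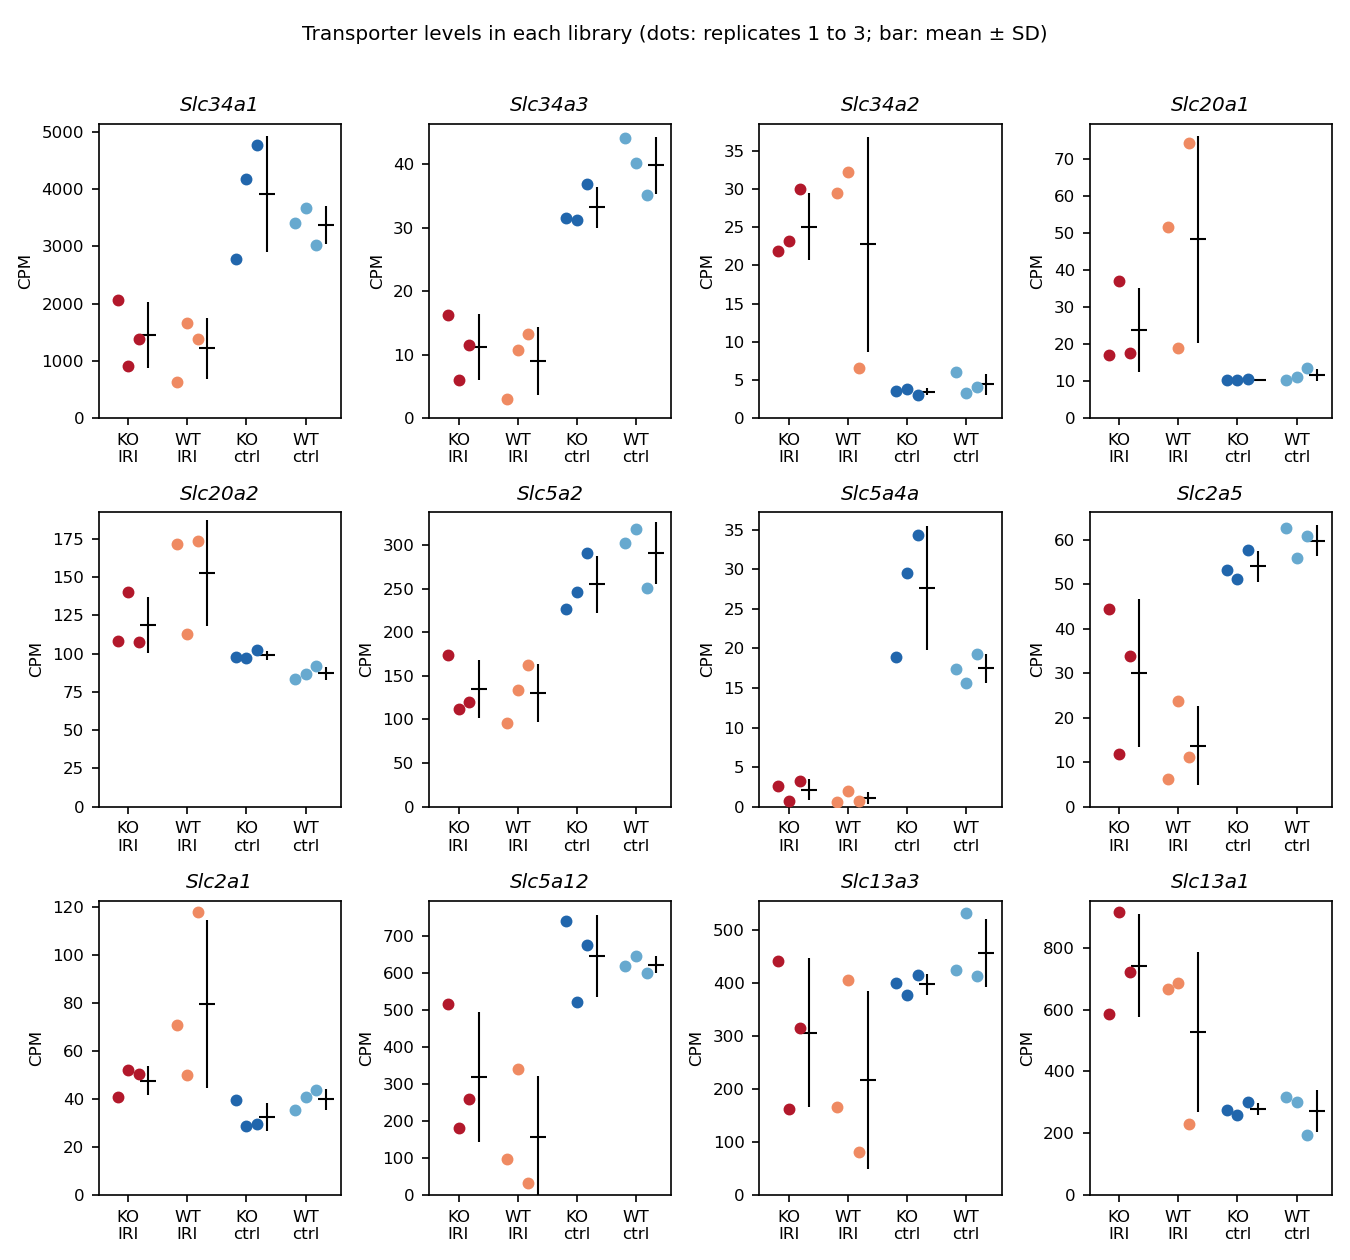
Level in each library (y axis, CPM) of 12 transporter genes in knockout IRI, wild-type IRI, knockout control and wild-type control kidneys. Dots are replicates 1 to 3 from left to right and the cross is the mean with a bar of 1 SD (n = 3, cut off at 0). Slc34a1, Slc34a3, Slc5a2 and Slc5a4a are lower in all IRI libraries than in all control libraries, and Slc34a2 and Slc20a1 higher, with the wild-type IRI libraries spread widely.

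Other genes that regulate phosphate were measured beside the carriers, from a list of 15 of which 14 were tested and Ankh was not analysed here. In wild type 5 fell and 1 rose, and in knockout 2 fell and none rose, where 22.5% and 6.32% of all genes were called. Kl, which encodes the FGF23 co-receptor klotho, fell in wild type (log2 fold change -1.75, SE 0.30, edgeR adjusted p = 0.00487) and in knockout (log2 fold change -1.47, SE 0.30, edgeR adjusted p = 0.0202). Cyp27b1, the enzyme that activates vitamin D, fell in wild type (log2 fold change -1.74, SE 0.51, edgeR adjusted p = 0.0333). Pdzk1, a scaffold of brush border carriers, also fell in wild type (log2 fold change -1.37, SE 0.38, edgeR adjusted p = 0.0274), as did Enpp1, which makes pyrophosphate (log2 fold change -0.97, SE 0.26, edgeR adjusted p = 0.0246). The fifth was the scaffold gene Slc9a3r1, and the gene that rose was the FGF receptor gene Fgfr1, both changed by less than 1 on the log2 scale. In knockout the other gene that fell was the phosphate exporter gene Xpr1.

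Of the sodium-coupled sugar carriers, Slc5a2, Slc5a4a and Slc5a9 fell after IRI in wild type. Slc5a2 (ENSMUSG00000030781, chr7:128265657-128272430, plus strand) encodes SGLT2, which takes up most of the filtered glucose in the early proximal tubule. Slc5a2 had 95.95, 134 and 162 CPM in wild-type IRI replicates 1 to 3, against 302, 319 and 251 CPM in wild-type control. In knockout Slc5a2 had 174, 112 and 120.1 CPM after IRI, against 227, 246 and 292 CPM in control. Every IRI library was below every control library in both genotypes. It fell 2.23-fold in wild type (log2 fold change -1.16, SE 0.22, edgeR adjusted p = 0.00648) and 1.88-fold in knockout (log2 fold change -0.91, SE 0.21, edgeR adjusted p = 0.0328). The knockout call ended without knockout IRI replicates 2 or 3, knockout control replicates 2 or 3, or wild-type control replicates 1 or 2 (adjusted p from 0.0516 to 0.128 by edgeR), and with the replicate block (adjusted p = 0.0816 by edgeR). Of its exon bases 20.6% lie opposite BC017158.

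Slc5a1 encodes SGLT1, which takes up the remaining glucose in the late segment. Slc5a1 had 39.03, 89.8 and 40.4 CPM in wild-type IRI replicates 1 to 3, against 71.1, 68.6 and 70.6 CPM in wild-type control. In knockout Slc5a1 had 95.8, 56.1 and 105 CPM after IRI, against 68.9, 59.95 and 60.2 CPM in control. The groups overlapped in both genotypes, with wild-type IRI replicate 2 high and replicates 1 and 3 low. It did not pass in wild type (log2 fold change -0.31, SE 0.31, edgeR adjusted p = 0.469) or knockout (log2 fold change 0.44, SE 0.31, edgeR adjusted p = 0.438), but it passed in wild type without wild-type IRI replicate 2 (log2 fold change -0.82, edgeR adjusted p = 0.0147).

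Slc5a4a (ENSMUSG00000020229, chr10:76147451-76189265, plus strand) had the greatest change of the 40 genes in both genotypes. Slc5a4a and Slc5a4b are mouse relatives of SGLT3, known in human as a glucose sensor. Slc5a4a had 0.6095, 1.92 and 0.766 CPM in wild-type IRI replicates 1 to 3, against 17.4, 15.6 and 19.4 CPM in wild-type control. In knockout Slc5a4a had 2.62, 0.652 and 3.22 CPM after IRI, against 18.98, 29.5 and 34.4 CPM in control. The highest IRI library was at 3.22 CPM and the lowest control library at 15.6 CPM. It fell 15.8-fold in wild type (log2 fold change -3.98, SE 0.57, edgeR adjusted p = 0.00252) and 12.9-fold in knockout (log2 fold change -3.69, SE 0.55, edgeR adjusted p = 0.00604), and both calls held without any 1 library. Slc5a4b, a close neighbour on chromosome 10 with which reads could be shared, stayed under 1 CPM in all 12 libraries. It did not pass in wild type (log2 fold change -0.29, SE 0.45, edgeR adjusted p = 0.663) or knockout (log2 fold change -1.51, SE 0.43, edgeR adjusted p = 0.0609). In knockout it passed without knockout control replicate 1 (adjusted p = 0.025 by edgeR) or wild-type IRI replicate 3 (adjusted p = 0.0438 by edgeR).

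Slc5a9 and Slc5a10 encode carriers of mannose and fructose. Slc5a9 had 20.99, 28.6 and 10.1 CPM in wild-type IRI replicates 1 to 3, against 42.5, 41.4 and 41.95 CPM in wild-type control. In knockout Slc5a9 had 29.9, 18.6 and 25.7 CPM after IRI, against 34.5, 36.3 and 41.01 CPM in control. All its IRI libraries were below all control libraries of the same genotype. Slc5a9 fell in wild type (log2 fold change -1.08, SE 0.30, edgeR adjusted p = 0.0281), a call that ended without wild-type IRI replicate 1 or any 1 wild-type control library (adjusted p from 0.069 to 0.0746 by edgeR). In knockout it did not pass (log2 fold change -0.59, SE 0.29, edgeR adjusted p = 0.265), except without wild-type IRI replicate 3 (adjusted p = 0.0414 by edgeR). Slc5a10 had 80.1, 142 and 85.1 CPM in wild-type IRI replicates 1 to 3, against 108, 78.4 and 99.4 CPM in wild-type control. In knockout Slc5a10 had 175, 82.9 and 175 CPM after IRI, against 95.9, 92.9 and 115 CPM in control. Its groups overlapped in both genotypes, and it did not pass in wild type (log2 fold change 0.11, SE 0.29, edgeR adjusted p = 0.812) or knockout (log2 fold change 0.51, SE 0.29, edgeR adjusted p = 0.336). Of its exon bases 16.8% lie opposite Grap and Fam83g.

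The other Slc5 genes carry inositol, short acids and vitamins. Slc5a11 encodes the myo-inositol carrier SMIT2. Slc5a11 had 19.4, 32.98 and 14.02 CPM in wild-type IRI replicates 1 to 3, against 58.6, 73.5 and 69.2 CPM in wild-type control. In knockout Slc5a11 had 52.2, 23.1 and 44.1 CPM after IRI, against 70.8, 76.7 and 83.7 CPM in control. The groups did not overlap in either genotype. Slc5a11 fell in wild type (log2 fold change -1.60, SE 0.32, edgeR adjusted p = 0.00885) and did not pass in knockout (log2 fold change -0.95, SE 0.32, edgeR adjusted p = 0.102). There it passed without wild-type IRI replicate 2 (adjusted p = 0.0415 by edgeR) or 3 (adjusted p = 0.0447 by edgeR), with DESeq2 (adjusted p = 0.03 by DESeq2) and without the pair of intermediate Y-linked level (adjusted p = 0.0239 by edgeR). Slc5a6 encodes the biotin and pantothenate carrier. Slc5a6 had 13.1, 15.01 and 7.96 CPM in wild-type IRI replicates 1 to 3, against 49.6, 30.04 and 34.5 CPM in wild-type control. In knockout Slc5a6 had 13.9, 12.7 and 18.5 CPM after IRI, against 18.6, 17.8 and 16.6 CPM in control. The wild-type control libraries stood above all 9 others, and the knockout groups overlapped. Slc5a6 fell in wild type (log2 fold change -1.66, SE 0.25, edgeR adjusted p = 0.00312) and did not pass in knockout (log2 fold change -0.23, SE 0.25, edgeR adjusted p = 0.639). Of its exon bases 9.92% lie opposite Atraid.

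Slc5a12 and Slc5a8 encode the sodium-coupled carriers of lactate and other monocarboxylates. Slc5a12 had 96.3, 342 and 32.1 CPM in wild-type IRI replicates 1 to 3, against 619, 645 and 600.2 CPM in wild-type control. In knockout Slc5a12 had 516, 180.1 and 259 CPM after IRI, against 739, 522 and 676 CPM in control. Every IRI library was below every control library, and wild-type IRI replicate 3 was lowest. Slc5a12 missed the threshold in wild type (log2 fold change -1.99, SE 0.67, edgeR adjusted p = 0.0525) and passed it without wild-type IRI replicate 2 (log2 fold change -3.28, edgeR adjusted p = 0.00163), and it did not pass in knockout (log2 fold change -1.02, SE 0.65, edgeR adjusted p = 0.391). Slc5a8 had 32.8, 65.3 and 89.4 CPM in wild-type IRI replicates 1 to 3, against 112, 89.3 and 104 CPM in wild-type control. In knockout Slc5a8 had 97.8, 34.01 and 62.6 CPM after IRI, against 103, 310.4 and 309.8 CPM in control. Knockout control replicates 2 and 3, both with a high Y-linked level, stood above the other 10 libraries. Slc5a8 fell in knockout (log2 fold change -1.90, SE 0.49, edgeR adjusted p = 0.045) and did not pass in wild type (log2 fold change -0.70, SE 0.47, edgeR adjusted p = 0.296). The knockout call ended with the Y-linked covariate (adjusted p = 0.0793 by edgeR), with only the knockout libraries (adjusted p = 0.0693 by edgeR) and with the replicate block (adjusted p = 0.103 by edgeR). It ended too without knockout IRI replicates 2 or 3, knockout control replicates 2 or 3, or any 1 wild-type control library (adjusted p from 0.067 to 0.16 by edgeR). The iodide carrier gene Slc5a5 stayed under 1 CPM and did not pass in either genotype. The choline carrier gene Slc5a7 stayed under 0.1 CPM and was not tested. The myo-inositol carrier gene Slc5a3 was listed at 0 in all 12 libraries. In GENCODE the spans of all 6 genes named here with a 0 in every library, Slc5a3, Txnip, Slc22a12, Slc22a13, Acta1 and Tubb3, overlap that of another gene. The share of all genes with such an overlap was not counted. Slc34a1, Slc5a2 and Slc2a12 also lie partly opposite other genes and had counts in every library. The cause of the 0 values was not tested. No source used here says whether reads of overlapping genes were counted, so a 0 does not show that the kidney lacks the gene.

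Of the 12 facilitative carriers of the Slc2 family, 1 rose and 4 fell in wild type, beside 13.1% and 9.41% of all genes. None was called in knockout, beside 6.32% of all genes. Slc2a1 (ENSMUSG00000028645, chr4:119108711-119137983, plus strand) encodes GLUT1, found in most cells. Slc2a1 had 70.6, 49.9 and 118 CPM in wild-type IRI replicates 1 to 3, against 35.2, 40.6 and 43.6 CPM in wild-type control. In knockout Slc2a1 had 40.7, 51.8 and 50.4 CPM after IRI, against 39.4, 28.5 and 29.5 CPM in control. The groups did not overlap, but knockout control replicate 1 was close to knockout IRI replicate 1. Slc2a1 rose 1.995-fold in wild type (log2 fold change 1.0, SE 0.26, edgeR adjusted p = 0.0238) and did not pass in knockout (log2 fold change 0.55, SE 0.26, edgeR adjusted p = 0.238). The call ended without wild-type IRI replicate 3 (log2 fold change 0.60, edgeR adjusted p = 0.0525) or any 1 wild-type control library (adjusted p from 0.0616 to 0.0792 by edgeR). Neutrophil genes rose beside it, 5 of 5 tested in wild type, where their summed level was 4.74 to 20.98 CPM after IRI, against 0.833 to 0.9798 CPM in control. In knockout 2 of 5 rose, with 3.99 to 6.43 CPM after IRI, against 0.812 to 1.21 CPM in control. Their part in the rise of Slc2a1 was not tested.

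Slc2a2 encodes GLUT2, through which glucose leaves the early proximal tubule cell on the blood side. Slc2a2 had 11.1, 11.6 and 1.64 CPM in wild-type IRI replicates 1 to 3, against 11.7, 11.3 and 13.2 CPM in wild-type control. In knockout Slc2a2 had 16.4, 15.7 and 17.8 CPM after IRI, against 16.5, 15.2 and 17.1 CPM in control. Wild-type IRI replicate 3 was far below the other 11 libraries, which lay between 11.1 and 17.8 CPM. It did not pass in wild type (log2 fold change -0.57, SE 0.48, edgeR adjusted p = 0.401) or knockout (log2 fold change 0.03, SE 0.48, edgeR adjusted p = 0.982). Slc2a3, the GLUT3 gene, known from neurons, lies on chromosome 6, 8.61 Mb from Ybx3. Slc2a3 had 12.3, 10.4 and 15.9 CPM in wild-type IRI replicates 1 to 3, against 13.5, 13.1 and 12.01 CPM in wild-type control. In knockout Slc2a3 had 11.1, 11.1 and 12.99 CPM after IRI, against 11.3, 11.2 and 12.1 CPM in control. Its groups overlapped throughout, and it did not pass in wild type (log2 fold change 0.00, SE 0.15, edgeR adjusted p = 0.993) or knockout (log2 fold change 0.03, SE 0.15, edgeR adjusted p = 0.947).

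Slc2a4 encodes GLUT4, the insulin-regulated carrier of muscle and fat. Slc2a4 had 5.302, 12.9 and 4.98 CPM in wild-type IRI replicates 1 to 3, against 24.7, 23.1 and 26.5 CPM in wild-type control. In knockout Slc2a4 had 15.1, 8.37 and 12.6 CPM after IRI, against 29.5, 17.9 and 23.0 CPM in control. The IRI libraries were all below the controls in both genotypes. Slc2a4 fell 3.196-fold in wild type (log2 fold change -1.68, SE 0.36, edgeR adjusted p = 0.0107) and did not pass in knockout (log2 fold change -0.96, SE 0.35, edgeR adjusted p = 0.127). There it passed without wild-type IRI replicate 2 (adjusted p = 0.0255 by edgeR), with DESeq2 (adjusted p = 0.0465 by DESeq2) and without the pair of intermediate Y-linked level (adjusted p = 0.0179 by edgeR). Of 6 skeletal and heart muscle genes 2 were tested and both fell in wild type, and Acta1 was listed at 0 in all 12 libraries. Their summed level was 0.284 to 0.578 CPM in wild-type IRI against 2.47 to 2.77 CPM in wild-type control. In knockout it was 0.4001 to 0.832 CPM after IRI against 1.15 to 2.27 CPM in control. Of 6 fat genes, none at 0, none was called in either genotype, with 44.2 to 108 CPM in wild-type IRI against 18.6 to 108 CPM in wild-type control. The part of these tissues in the fall of Slc2a4 was not tested.

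Slc2a5 (ENSMUSG00000028976, chr4:150119283-150144169, plus strand) encodes GLUT5, a fructose carrier. Slc2a5 had 6.298, 23.7 and 11.2 CPM in wild-type IRI replicates 1 to 3, against 62.6, 55.9 and 60.95 CPM in wild-type control. In knockout Slc2a5 had 44.4, 11.9 and 33.8 CPM after IRI, against 53.1, 51.1 and 57.8 CPM in control. All IRI libraries were below all control libraries, and knockout IRI replicate 1 came nearest to the controls. Slc2a5 fell 4.36-fold in wild type (log2 fold change -2.12, SE 0.49, edgeR adjusted p = 0.0141) and did not pass in knockout (log2 fold change -0.85, SE 0.47, edgeR adjusted p = 0.319). Slc2a12 and Slc2a8 encode GLUT12 and the intracellular GLUT8. Slc2a12 had 4.998, 10.2 and 4.77 CPM in wild-type IRI replicates 1 to 3, against 16.8, 20.8 and 16.7 CPM in wild-type control. In knockout Slc2a12 had 13.6, 7.202 and 9.89 CPM after IRI, against 16.4, 15.8 and 18.3 CPM in control. The groups of Slc2a12 did not overlap in either genotype. It fell in wild type (log2 fold change -1.44, SE 0.30, edgeR adjusted p = 0.00961) and did not pass in knockout (log2 fold change -0.72, SE 0.29, edgeR adjusted p = 0.17); 9.61% of its exon bases lie opposite Tbpl1. Slc2a8 had 7.15, 10.98 and 6.81 CPM in wild-type IRI replicates 1 to 3, against 15.7, 13.5 and 13.5 CPM in wild-type control. In knockout Slc2a8 had 11.04, 9.22 and 9.97 CPM after IRI, against 12.4, 10.8 and 11.7 CPM in control. The groups of Slc2a8 were apart in wild type and overlapped in knockout. It fell in wild type (log2 fold change -0.77, SE 0.18, edgeR adjusted p = 0.014), a call that ended without wild-type IRI replicate 1 (adjusted p = 0.0548 by edgeR), and it did not pass in knockout (log2 fold change -0.21, SE 0.18, edgeR adjusted p = 0.539).

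Slc2a9 encodes a urate carrier and Slc2a13 a proton-coupled myo-inositol carrier. Slc2a9 had 51.4, 79.2 and 25.1 CPM in wild-type IRI replicates 1 to 3, against 56.2, 81.7 and 66.3 CPM in wild-type control. In knockout Slc2a9 had 73.7, 52.2 and 76.8 CPM after IRI, against 52.7, 46.8 and 57.4 CPM in control. Its groups overlapped, with wild-type IRI replicate 3 lowest of all 12. Slc2a9 did not pass in wild type (log2 fold change -0.39, SE 0.33, edgeR adjusted p = 0.396) or knockout (log2 fold change 0.37, SE 0.33, edgeR adjusted p = 0.561), except in wild type without wild-type IRI replicate 2 (log2 fold change -0.83, edgeR adjusted p = 0.044). Slc2a13 had 20.1, 32.3 and 6.87 CPM in wild-type IRI replicates 1 to 3, against 47.4, 36.2 and 51.2 CPM in wild-type control. In knockout Slc2a13 had 28.3, 28.1 and 27.3 CPM after IRI, against 64.99, 53.4 and 45.3 CPM in control. Every IRI library was below every control library. Slc2a13 missed the threshold in wild type (log2 fold change -1.18, SE 0.40, edgeR adjusted p = 0.0547), where it passed without wild-type IRI replicate 2 (log2 fold change -1.74, edgeR adjusted p = 0.00544) or 3 (log2 fold change -0.78, edgeR adjusted p = 0.0378). In knockout (log2 fold change -0.97, SE 0.40, edgeR adjusted p = 0.176) it passed without wild-type IRI replicate 3 (adjusted p = 0.0136 by edgeR). Slc2a6 and Slc2a10 lay between 0.809 and 3.21 CPM in all libraries and Slc2a7 under 0.3 CPM, and none of the 3 was called.

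Of 13 genes of glucose sensing and transporter partners, 12 were tested, and Txnip was listed at 0 in every library. In wild type, where 22.5% of all genes were called, 3 fell and none rose. These were Rap1gap (log2 fold change -1.12, SE 0.29, edgeR adjusted p = 0.0214), Tbc1d4, whose product holds back GLUT4 vesicles (log2 fold change -0.64, SE 0.21, edgeR adjusted p = 0.0459), and Hnf4a, a nuclear receptor of the proximal tubule (log2 fold change -0.63, SE 0.20, edgeR adjusted p = 0.0402). None was called in knockout.

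The Slc13 family carries sulfate, dicarboxylates and citrate. Of its 5 genes 1 fell in wild type and 1 rose in knockout, where 22.5% and 6.32% of all genes were called. Slc13a1 (ENSMUSG00000029700, chr6:24088283-24168092, minus strand) encodes the brush border sulfate carrier NaS1. Slc13a1 had 666, 687 and 228 CPM in wild-type IRI replicates 1 to 3, against 318, 301 and 193 CPM in wild-type control. In knockout Slc13a1 had 585, 916 and 722 CPM after IRI, against 275, 259.8 and 301 CPM in control. In knockout all IRI libraries were above all control libraries, and in wild type replicate 3 after IRI lay among the controls. Slc13a1 rose 2.66-fold in knockout (log2 fold change 1.41, SE 0.36, edgeR adjusted p = 0.0431) and missed the threshold in wild type (log2 fold change 0.96, SE 0.35, edgeR adjusted p = 0.0714), where it passed without IRI replicate 3 (log2 fold change 1.32, edgeR adjusted p = 0.00656). The knockout call ended with the Y-linked covariate (adjusted p = 0.0555 by edgeR), with the replicate block (adjusted p = 0.067 by edgeR), and without any 1 knockout library, wild-type IRI replicate 1 or any 1 wild-type control library (adjusted p from 0.0501 to 0.171 by edgeR).

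Slc13a3 encodes NaDC3, the dicarboxylate carrier of the blood side, and Slc13a2 encodes NaDC1, its brush border counterpart. Slc13a3 had 167, 405 and 81.3 CPM in wild-type IRI replicates 1 to 3, against 426, 532 and 414 CPM in wild-type control. In knockout Slc13a3 had 443, 162 and 315 CPM after IRI, against 399.9, 378 and 416 CPM in control. The wild-type groups did not overlap, with IRI replicate 2 close to the controls, and the knockout groups did. Slc13a3 did not pass in wild type (log2 fold change -1.07, SE 0.49, edgeR adjusted p = 0.128) or knockout (log2 fold change -0.38, SE 0.48, edgeR adjusted p = 0.714), but passed in wild type without IRI replicate 2 (log2 fold change -1.88, edgeR adjusted p = 0.00564) and without the pair of intermediate Y-linked level (log2 fold change -1.89, edgeR adjusted p = 0.00433). Slc13a2 had 13.8, 26.4 and 2.94 CPM in wild-type IRI replicates 1 to 3, against 19.5, 29.3 and 28.9 CPM in wild-type control. In knockout Slc13a2 had 48.9, 15.2 and 29.7 CPM after IRI, against 49.3, 25.0 and 31.3 CPM in control. Its groups overlapped in both genotypes. Slc13a2 did not pass in wild type (log2 fold change -0.85, SE 0.62, edgeR adjusted p = 0.332) or knockout (log2 fold change -0.17, SE 0.61, edgeR adjusted p = 0.915), and 26.2% of its exon bases lie opposite Slc13a2os. Slc13a4 encodes another sulfate carrier. Slc13a4 had 1.14, 1.901 and 0.936 CPM in wild-type IRI replicates 1 to 3, against 3.23, 3.33 and 3.06 CPM in wild-type control. In knockout Slc13a4 had 2.05, 1.42 and 1.61 CPM after IRI, against 2.39, 2.52 and 2.82 CPM in control. All IRI libraries were below the controls of their genotype. Slc13a4 fell in wild type (log2 fold change -1.27, SE 0.25, edgeR adjusted p = 0.00841) and did not pass in knockout (log2 fold change -0.60, SE 0.25, edgeR adjusted p = 0.178).

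None of the 7 tested Slc17 genes was called after IRI in either genotype, beside 22.5% of all genes in wild type and 6.32% in knockout. Slc17a1 encodes the urate and phosphate carrier NPT1. Slc17a1 had 218, 230.5 and 191 CPM in wild-type IRI replicates 1 to 3, against 215, 192 and 186 CPM in wild-type control. In knockout Slc17a1 had 226, 211 and 230.2 CPM after IRI, against 163, 307 and 321 CPM in control. It varied little except in knockout control, where replicate 1 was low and replicates 2 and 3 were high. Slc17a1 did not pass in wild type (log2 fold change 0.11, SE 0.21, edgeR adjusted p = 0.728) or knockout (log2 fold change -0.25, SE 0.21, edgeR adjusted p = 0.542), except in knockout without control replicate 1 (adjusted p = 0.0286 by edgeR). Slc17a3 encodes the organic anion and urate carrier NPT4. Slc17a3 had 194, 151 and 96.05 CPM in wild-type IRI replicates 1 to 3, against 238, 154 and 140.3 CPM in wild-type control. In knockout Slc17a3 had 123, 149 and 133 CPM after IRI, against 117, 376 and 370.5 CPM in control. Knockout control replicates 2 and 3 were again the highest of the 12. Slc17a3 did not pass in wild type (log2 fold change -0.27, SE 0.39, edgeR adjusted p = 0.633) or knockout (log2 fold change -1.09, SE 0.40, edgeR adjusted p = 0.129), but passed in knockout without control replicate 1 (log2 fold change -1.47, edgeR adjusted p = 0.0146) and with DESeq2 (adjusted p = 0.0412 by DESeq2).

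Slc17a5 encodes sialin, the sialic acid carrier of lysosomes. Slc17a5 had 54.5, 47.6 and 89.5 CPM in wild-type IRI replicates 1 to 3, against 52.4, 49.2 and 48.5 CPM in wild-type control. In knockout Slc17a5 had 51.4, 49.2 and 46.4 CPM after IRI, against 47.8, 62.6 and 68.5 CPM in control. Wild-type IRI replicate 3 was highest, and the groups overlapped. Slc17a5 did not pass in wild type (log2 fold change 0.35, SE 0.21, edgeR adjusted p = 0.233) or knockout (log2 fold change -0.28, SE 0.21, edgeR adjusted p = 0.471). Slc17a9, the vesicular ATP carrier gene, was at 1.83, 2.14 and 6.24 CPM in wild-type IRI against 1.48, 1.33 and 1.62 CPM in wild-type control. The groups did not overlap, and it just missed the threshold (log2 fold change 1.20, SE 0.40, edgeR adjusted p = 0.0504), passing without wild-type IRI replicate 1 (adjusted p = 0.0343 by edgeR) or 2 (adjusted p = 0.0177 by edgeR). Slc17a4 lay between 4.97 and 9.90 CPM. Of the vesicular glutamate carriers of neurons, Slc17a8 lay between 0.470 and 2.23 CPM, and Slc17a6 and Slc17a7 were under 0.2 CPM in every library. Of 5 neuron genes Tubb3 was listed at 0 in all 12 libraries, and none of the 4 tested was called.

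Of 9 partners of these carriers in urate and organic anion handling, 8 were tested, and Slc22a12 was listed at 0. In wild type 1 rose and 2 fell, and in knockout 1 fell, where 22.5% and 6.32% of all genes were called. The gene that rose was Xdh, the enzyme that makes urate (log2 fold change 1.88, SE 0.41, edgeR adjusted p = 0.0123). Slc22a7, an organic anion carrier, fell in wild type (log2 fold change -1.92, SE 0.38, edgeR adjusted p = 0.00825) and in knockout (log2 fold change -1.84, SE 0.38, edgeR adjusted p = 0.0208), and Pdzk1 fell in wild type as given above.

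When the Y-linked level entered the fit, its own coefficient was called for 1 of the 40 genes and for 0.239% of all genes. This was Slc17a2, the gene of the organic anion carrier NPT3, which was lower by 0.60 on the log2 scale for each log2 unit of Y-linked level (SE 0.08, edgeR adjusted p = 0.017). Slc17a2 had 0.488, 2.81 and 0.638 CPM in wild-type IRI replicates 1 to 3, against 14.8, 10.4 and 11.5 CPM in wild-type control. In knockout Slc17a2 had 2.16, 0.341 and 3.59 CPM after IRI, against 8.85, 0.2302 and 0.158 CPM in control. The 4 control libraries with a Y-linked level near 0 held 8.85 to 14.8 CPM, and knockout control replicates 2 and 3, with a high level, held 0.230 and 0.158 CPM. Slc17a2 did not pass in wild type (log2 fold change -3.21, SE 1.33, edgeR adjusted p = 0.101) or knockout (log2 fold change -0.62, SE 1.24, edgeR adjusted p = 0.83), but passed in wild type without knockout control replicate 1 (log2 fold change -3.21, edgeR adjusted p = 0.0218). Slc17a3, Slc5a8 and Slc13a5 were highest in the same pair of knockout control libraries. So were Slc17a1, Slc34a1, Slc5a4a, Slc5a4b and Slc5a11, and the coefficient was called for none of these genes. The summed level of the late proximal tubule markers was highest in that pair too, at 916 and 748 CPM. Of these markers Slc22a7 had the lower mean in knockout control, 73.9 against 104.7 CPM in wild-type control. The part of these markers was not tested.

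**Figure D4:**
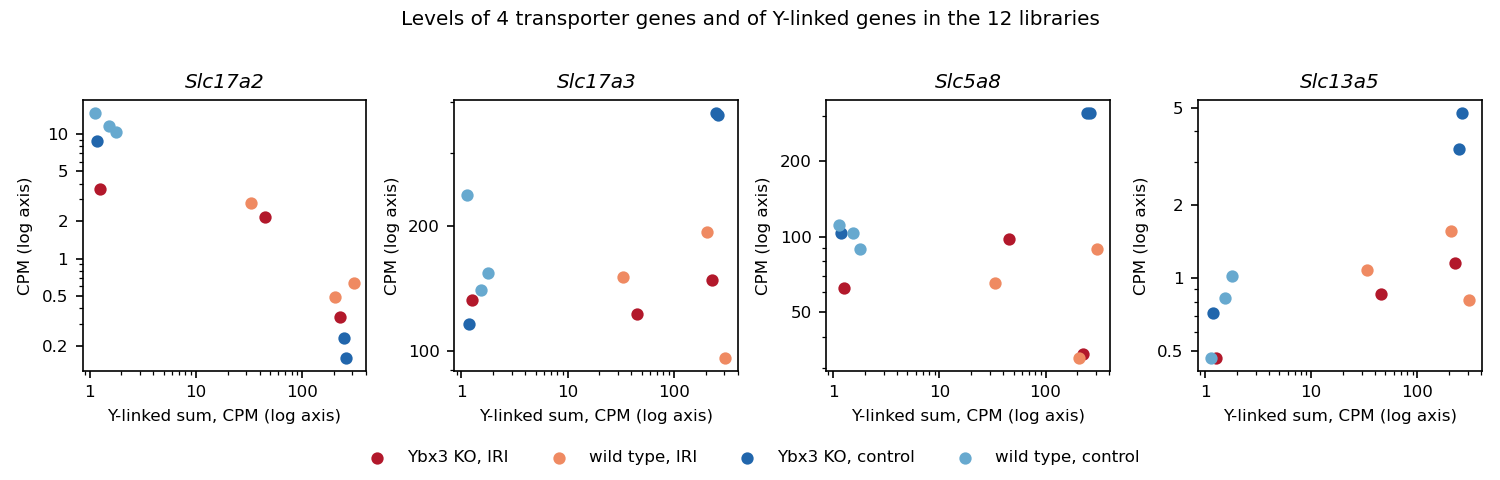
Level of Slc17a2, Slc17a3, Slc5a8 and Slc13a5 (y axis, CPM on a log axis) in each of the 12 libraries against the summed level of 4 Y-linked genes (x axis, CPM on a log axis), with the group by colour. Slc17a2 is lowest where the Y-linked level is high, and in the other 3 panels knockout control replicates 2 and 3 stand at the top right.

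Between knockout and wild-type control kidneys none of the 40 genes was called by edgeR, where 0.0104% of all genes were. At an unadjusted p under 0.05 there were 4, beside 5.36% of all genes. DESeq2 called 1, beside 0.375% of all genes, and limma-voom called 0. In 2 genes every knockout library was above every wild-type library and in 6 every one was below, beside 6.34% and 10.1% of all genes. Slc5a6 had 18.6, 17.8 and 16.6 CPM in knockout control against 49.6, 30.0 and 34.5 CPM in wild-type control. These groups did not overlap (log2 fold change -1.11, SE 0.25, edgeR adjusted p = 0.606), and DESeq2 called it (adjusted p = 0.0118 by DESeq2). Slc13a5, a citrate carrier gene, had 0.721, 3.38 and 4.78 CPM in knockout control against 0.467, 1.01 and 0.829 CPM in wild-type control (log2 fold change 1.93, SE 0.60, edgeR adjusted p = 0.673). Its knockout replicate 1 lay within the wild-type range. Without that library Slc13a5 (log2 fold change 2.40, edgeR adjusted p = 0.0394) and Slc17a1 (log2 fold change 0.67, edgeR adjusted p = 0.0377) passed, beside 0.663% of all genes, which sets a pair of libraries with a high Y-linked level against 3 with a level near 0. The other 2 genes with an unadjusted p under 0.05 were Slc5a8 (log2 fold change 1.25, SE 0.48, edgeR adjusted p = 0.841) and Slc5a4b (log2 fold change 1.05, SE 0.42, edgeR adjusted p = 0.867). Slc13a5 was also lower after IRI in knockout without control replicate 1 (log2 fold change -2.28, edgeR adjusted p = 0.0127), though not with all libraries (log2 fold change -1.81, SE 0.59, edgeR adjusted p = 0.0933).

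After IRI none of the 40 genes differed between knockout and wild type by edgeR, where 0.0104% of all genes did. At an unadjusted p under 0.05 there were 5 of the 40, near the 11.5% of all genes. DESeq2 called 0 of the 40, beside 0.609% of all genes, and limma-voom called 0. Only in Slc2a2 did the groups not overlap, with every knockout library higher, beside 6.28% of all genes higher and 5.95% lower. In control kidneys too, every knockout library was above every wild-type library for Slc2a2. The 5 genes were Slc2a1 (log2 fold change -0.74, SE 0.26, edgeR adjusted p = 0.422), Slc5a11 (log2 fold change 0.85, SE 0.32, edgeR adjusted p = 0.422), Slc20a1 (log2 fold change -1.02, SE 0.42, edgeR adjusted p = 0.424), Slc2a5 (log2 fold change 1.13, SE 0.47, edgeR adjusted p = 0.424) and Slc20a2 (log2 fold change -0.36, SE 0.16, edgeR adjusted p = 0.433). Slc2a1, Slc20a1 and Slc20a2 had the lower mean in knockout and Slc5a11 and Slc2a5 the higher one. Wild-type IRI replicate 2 was the wild-type library nearest to the knockout libraries in these genes. Without it 8 genes passed (adjusted p from 0.0397 to 0.0475 by edgeR), where 4.43% of all genes did. Slc5a12, Slc5a11, Slc2a4, Slc5a1 and Slc2a12 were higher in knockout, and Slc20a1, Slc2a1 and Slc20a2 lower. Leaving out the nearest library widens the gap by itself, so these calls add no evidence of a difference. That fit also sets wild-type libraries with a Y-linked sum of 207 and 307 CPM against knockout libraries at 45.2, 227 and 1.26 CPM.

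The response to IRI was not called different between the genotypes for any of the 40 genes, nor for any of the 19218 genes tested (0%). At an unadjusted p under 0.05 there were 4 of the 40, and DESeq2 and limma-voom called 0 of the 40. Of all genes 1350 (7.02%) had an unadjusted p under 0.05, DESeq2 called 32 (0.167%) and limma-voom 0. The 4 genes were Slc5a6 (log2 fold change 1.43, SE 0.35, edgeR adjusted p = 0.666), Slc13a5 (log2 fold change -2.39, SE 0.84, edgeR adjusted p = 0.666), Slc20a2 (log2 fold change -0.55, SE 0.23, edgeR adjusted p = 0.666) and Slc2a8 (log2 fold change 0.56, SE 0.25, edgeR adjusted p = 0.666), where the value is the knockout response minus the wild-type response. A gene called in 1 genotype only is therefore not shown to respond differently in the other.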

How the data were processed

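Per the labels' protocols, total RNA was depleted of ribosomal RNA, made into strand-marking libraries and sequenced from both ends on a NovaSeq. Per the submitters' processing notes, STAR and mm10 were used. No source used here gives STAR's version, the counting tool or the strand setting. The authors deposited a count of reads for each Ensembl gene, in whole numbers and not normalized. Every count column was matched to a sample title.

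Coordinates, strands and exon lengths come from GENCODE M21. Counts were tested with edgeR 4.0.16 under R 4.3.3, after filterByExpr by group (minimum count 10, minimum total 15). TMM scaling was used, and 1 quasi-likelihood fit over all 12 libraries had a coefficient per group. The 5 two-sided contrasts were adjusted by Benjamini-Hochberg over all 19218 genes tested. CPM are relative to the scaled library size, and levels per kilobase divide CPM by the summed exon length. The text gives values in every library for each transporter gene called in a comparison or averaging at least 10 CPM in a group, and names every other member. Of the other gene lists it names up to 4 called genes, and others only where few genes make up a count. The transporter genes and lists were chosen with earlier results of these data known, so no test was made on them as sets. Alternatives used RLE scaling, library sizes alone, DESeq2 1.42.0, limma-voom of limma 3.58.1, other filters, other samples or a Y-linked covariate. Promoters came from RefSeq, build GRCm38.p6, where 35 of the 44 genes matched by symbol. The procedure was tested on simulated data.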

Additional observations from a re-analysis of the deposited data

How the results depend on the processing

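No call of a transporter gene reversed its direction under any alternative run, the scalings by RLE and by library sizes alone included. For IRI in wild type, 16 genes were called (22.5% of all genes), against 0 with the Y-linked covariate (1.59%), 10 with only the groups compared (6.68%) and 13 to 22 when 1 library was left out (8.04% to 36.1%). The median of the 40 log2 fold changes was -0.48, against -0.83 without wild-type IRI replicate 2, -0.33 without wild-type IRI replicate 3 and -0.84 without both knockout IRI replicate 1 and wild-type IRI replicate 2, a pair of intermediate Y-linked level. For IRI in knockout, 6 were called (6.32% of all genes), against 13 with DESeq2 (13%), 3 with the Y-linked covariate (5.78%), 2 with the replicate block (2.44%), 0 without the adrenal libraries (0.219%), 13 without that pair (9.08%), and 1 to 11 when 1 library was left out (0.912% to 14.7%). The median log2 fold change of the 40 genes in knockout was -0.28, against -0.57 without that pair and -0.54 to -0.24 when 1 library was left out. In control kidneys no gene was called between the genotypes, against 1 with DESeq2 (0.375%) and 0 to 2 when 1 library was left out (0% to 0.663%), and the median was -0.08, against 0.07 with the Y-linked covariate. After IRI no gene was called between the genotypes, against 0 to 8 when 1 library was left out (0% to 4.43%). The cause of these changes was not tested. Fits that left out libraries also had fewer samples, and the part of that was not tested either.

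Same-numbered samples did not deviate together (correlations of -0.417 to 0.077), so the numbers were not taken as pairs. With the replicate block 16 genes were called for IRI in wild type and 0 in both genotype comparisons and the interaction. Fitting only the groups compared gives no other interaction, since it uses all 4 groups. Fits that leave 1 library in a group assume that it varies like the other groups. Genes near the filter, such as Slc2a7 and Slc5a5, rest on few counts, and a change in them was not detectable at this depth unless large.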
